A study of Homo sapiens with 9 samples.

Results

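Replication-dependent histone genes were followed in NCCIT, an established line of human embryonal carcinoma with properties of pluripotent cells. Kept in suspension, these cells gather into embryoid bodies, balls of cells in which differentiation starts. The members were all genes with a transcript cluster of their own whose symbol marks a linker histone (H1-), or an H2A, H2B, H3 or H4 gene of the histone clusters (H2AC, H2BC, H3C, H4C), which gave 63 of 18417 genes. Each of them had 1 such cluster. Of the 63, 54 were taken as canonical genes, being those left after 9 others were set aside by name or biotype. These 9 were the linker gene H1-10, known as replication-independent, the testis or oocyte genes H1-6, H1-7, H1-8, H2AC1 and H2BC1, the pseudogenes H1-9P and H2BC19P, and the antisense RNA H1-10-AS1. No annotation used here marks the 54 as replication-dependent, and that name is given to them by their symbols. A further 14 histone symbols appeared only in clusters shared by several genes and were not members.

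The study held 9 Affymetrix whole-transcript arrays of total RNA, 1 per condition. One array came from undifferentiated NCCIT cells. The other 8 came from embryoid bodies grown without addition, with 50 mM ethanol, with FA, or with ethanol and FA, for 7 or for 21 days. The sources used here spell out neither FA nor its dose. All 9 arrays came from the same line in medium with fetal bovine serum, no label says whether they came from separate cultures, and p-values accordingly describe nothing beyond the scatter of these arrays, possibly a technical one. Values are log2 expression from RMA. The design addresses how gene expression in embryoid bodies differs with ethanol.

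Histone proteins package DNA. H2A, H2B, H3 and H4 form the core of the nucleosome and H1 binds the linker DNA between nucleosomes. Most are made in S phase from many near-identical gene copies in a few genomic clusters, under the coactivator NPAT, and their mRNAs end in a stem-loop bound by SLBP in place of a poly(A) tail. A few of these genes, among them H2BC5, H2BC12 and H2BC21, are known to give polyadenylated transcripts as well. Which primers were used for labelling, which decides how RNA without a poly(A) tail is read, the sources used here do not say.

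The copies are so alike that arrays may not separate them. H4C14 and H4C15 held the same value on all 9 arrays, so they were 1 measurement carrying 2 names. Their RefSeq promoter windows, 250 bases before to 50 after the gene start, were identical at 300 of 300 positions. The 150 bases before each start are printed to show this, from GRCh38.p14, H4C14 at chr1:149832507-149832656 (plus strand) and H4C15 at chr1:149861160-149861309 (minus strand).

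H4C14: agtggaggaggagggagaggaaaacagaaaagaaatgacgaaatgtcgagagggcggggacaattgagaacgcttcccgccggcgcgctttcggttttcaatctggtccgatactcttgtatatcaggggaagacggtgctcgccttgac
H4C15: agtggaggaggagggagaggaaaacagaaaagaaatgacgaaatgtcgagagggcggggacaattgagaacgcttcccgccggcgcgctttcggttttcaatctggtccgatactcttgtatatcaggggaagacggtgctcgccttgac

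A cluster shared by H4C15 and H4C14 went against that pair between day 7 and day 21. It lay between 11.85 and 11.99 at day 7 and between 11.53 and 11.82 at day 21, and its day difference was -0.24 ± 0.06 (SE of the fit, limma adjusted p = 0.00812). The clusters of 1 symbol gave 0.33 ± 0.08 (adjusted p = 0.00906). The direction of H4C14 and H4C15 over time is therefore not settled by these arrays. Shared probe signal may also touch other members, since 20 clusters listed several symbols with at least 1 histone gene.

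One additive model per gene, with terms for ethanol, FA, day and the undifferentiated array, was fitted with limma to 12254 genes that reached above the median of all values (7.71) on at least 1 array. Of the 63 members 47 passed this filter, 41 of them canonical. The 16 that did not were H1-1, H1-5, H1-6, H2AC1, H2AC4, H2AC14, H2AC16, H2BC1, H2BC3, H2BC10, H3C1, H3C3, H3C8, H4C1, H4C7 and H4C13, with means over the arrays from 4.75 (H2AC14), 5.09 (H2BC10) and 5.94 (H2BC1) up to 7.17 (H4C1). The highest means were those of H1-4 (13.4) and of H4C14 and H4C15 (12.1), and the lowest among the tested members were those of H2BC11 (7.37), H2AC25 (7.51) and H3C11 (7.56). Levels of different clusters depend on their probes and are not ranked as amounts of RNA. Of the tested members H3C11, H2AC25 and H2BC11 passed through the undifferentiated array alone, so a fall in them was favoured by the filter, and 29 of the other 44 fell in embryoid bodies. The members are not independent copies of a measurement and are described by counts and medians.

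Histone genes were lower in embryoid bodies than in undifferentiated cells. The difference compares the fitted level of untreated embryoid bodies, as the mean of day 7 and day 21, with the array of undifferentiated cells, and it rests on that 1 array. In limma with Benjamini-Hochberg adjustment over all genes, 31 of the 47 tested members fell and 0 rose, where 28.1% of all 12254 genes changed, 17.2% falling and 11% rising. The median over the 47 was -0.42, against -0.05 over all genes. At least 2-fold lower were 5 members, H2BC11 of the filter note above among them, and 0 were as much higher. Of all 12254 genes 104 were at least 2-fold lower and 236 at least 2-fold higher. After centring of the arrays all genes split into 2568 lower and 1081 higher in place of 2104 and 1345, and 34 members fell. With no filter on dim genes 33 of all 63 members fell, 0 rose and the median was -0.38, where 1932 of 18417 genes fell, 1336 rose and the median was -0.03. On 36 of the 47 the undifferentiated array lay above all 8 embryoid body arrays, as it did for 26.9% of all genes tested.

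The 3 deepest falls were in H2B genes, which code for 1 of the 4 core histones. H2BC14 read 11.24 in undifferentiated cells, 9.86 untreated, 10.16 with ethanol, 9.60 with FA and 9.98 with both at day 7, and 9.76, 9.71, 9.72 and 9.75 in the same order at day 21. Every embryoid body array lay more than 1 log2 unit below the undifferentiated one. The fitted difference was -1.45 ± 0.15, or 2.72-fold lower (limma adjusted p = 0.000919).

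H2BC11 read 8.72 in undifferentiated cells, between 6.91 and 7.53 at day 7 and between 6.94 and 7.26 at day 21. The 2 days overlapped, and its values in embryoid bodies were below the median of all values. The difference was -1.29 ± 0.11 (2.44-fold lower, limma adjusted p = 0.000642).

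H2BC12 fell from 11.67 to 10.63 untreated, 9.96 with ethanol, 10.87 with FA and 10.32 with both at day 7, and to 10.28, 9.96, 10.16 and 9.99 in the same order at day 21. The difference was -1.25 ± 0.17 (2.38-fold lower, limma adjusted p = 0.00213). A cluster shared by H2BC12, H2BC12L, H2BC17 and H2BC5 fell as well, by 0.99 ± 0.08 (adjusted p = 0.000547).

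H2AC12 (-1.07 ± 0.10, limma adjusted p = 0.000745), an H2A gene, and H3C12 (-1.02 ± 0.12, adjusted p = 0.00148), an H3 gene, were the other members at least 2-fold lower. H2BC13 came next at -0.88 ± 0.15 (adjusted p = 0.00472).

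**Figure D1:**
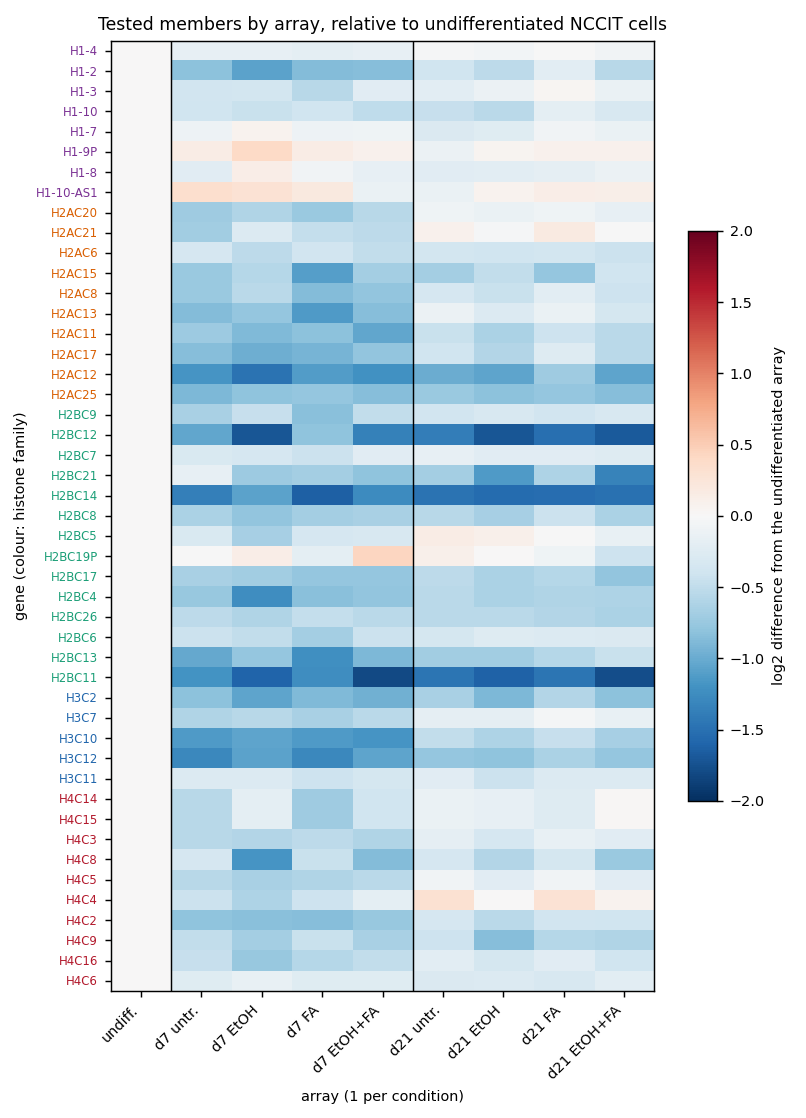
Log2 RMA difference of each tested member (rows, coloured by family) from the undifferentiated array, for the 9 arrays (columns, 1 per condition; d7 and d21 are days, EtOH is ethanol). Blue is lower; H2BC14, H2BC11 and H2BC12 are the darkest rows, and most other rows are paler at day 21 than at day 7.

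All core families took part. Among canonical members, 9 of 10 H2A, 10 of 13 H2B, 4 of 5 H3 and 6 of 10 H4 genes fell, with medians of -0.55, -0.58, -0.76 and -0.37. Of the 3 tested canonical H1 genes 1 fell, H1-2 (-0.61 ± 0.11, limma adjusted p = 0.00528), while H1-4, which codes for a major somatic linker histone, was at -0.10 ± 0.08 (adjusted p = 0.415) and H1-3 at -0.30 ± 0.13 (adjusted p = 0.136). H1-10 also fell, by 0.41 ± 0.11 (adjusted p = 0.0271), while the testis and oocyte linker genes H1-7 and H1-8 were at -0.16 ± 0.11 and -0.17 ± 0.13. The members above 0 were no canonical genes: H1-10-AS1 was at 0.16 ± 0.18, H1-9P at 0.07 ± 0.13 and H2BC19P at 0.02 ± 0.24, and none passed the test. All 41 canonical tested members were below 0. By chromosome, 26 of 33 canonical members on chromosome 6, 3 of 7 on chromosome 1 and the 1 on chromosome 12 fell, where 17.2% of all genes did. H4C14 and H4C15, 1 measurement (-0.38 ± 0.13, limma adjusted p = 0.0634), count as 2 uncalled genes for H4 and for chromosome 1. The cluster shared by both fell by 0.65 ± 0.09 (adjusted p = 0.00254). H2AC21, also on chromosome 1, was not called (adjusted p = 0.305), but its cluster shared with H2AC18, H2AC19 and H2AC20 fell by 0.67 ± 0.13 (adjusted p = 0.00699).

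The fall was already there at day 7. Between single arrays, with no test, the untreated day 7 array was below the undifferentiated one for 45 of 47 tested members and 58.5% of all genes, with a median of -0.55 and 7 members at least 2-fold lower, where 0.424% of all genes were that much lower and 1.23% that much higher, with 0 members among the latter. The untreated day 21 array was below it for 43 of 47 and 57.3% of all genes, with a median of -0.34 and 3 members at least 2-fold lower, where 2.23% of all genes were, and 0 members against 4.94% of all genes were as much higher. Over all genes the medians were -0.05 and -0.07. The mean log2 level of the 41 canonical tested members was 10.07 in undifferentiated cells, 9.33 to 9.41 on the 4 day 7 arrays and 9.54 to 9.67 on the 4 day 21 arrays. With the 13 dim ones included it was 9.21, 8.58 to 8.64 and 8.75 to 8.85.

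**Figure D2:**
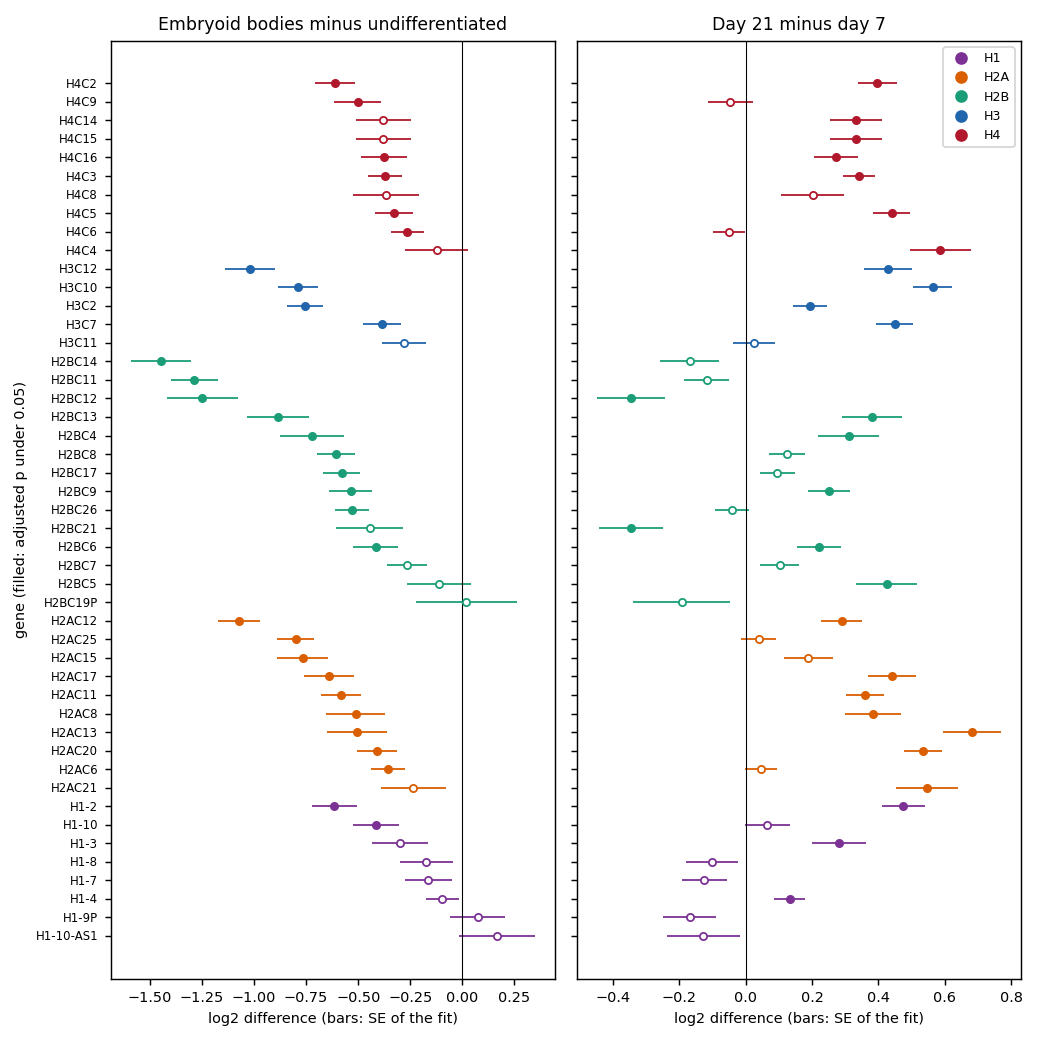
Log2 difference of each tested member between embryoid bodies and undifferentiated cells (left) and between day 21 and day 7 (right), from the additive fit, with bars for the SE and filled points for adjusted p under 0.05. The left panel has 31 filled points, all below 0, and the right panel 26 above 0 and 2 below.

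Between day 7 and day 21 more histone genes rose than fell. Limma with Benjamini-Hochberg adjustment called 26 of 47 tested members higher and 2 lower at day 21, where 48.9% of all genes were called, 26.3% higher and 22.6% lower. The 26 hold H4C14 and H4C15, the measurement with an unsettled direction, and with that pair counted once they are 25. The median over the members was 0.22, against -0.01 over all genes, and no member was 2-fold apart. With arrays centred on their medians all genes split into 3841 higher and 2106 lower in place of 3224 and 2771, and the members into 28 and 1. With no filter on dim genes 26 of all 63 rose, 2 fell and the median was 0.10, where 3448 of 18417 genes rose, 3237 fell and the median was -0.05. With 1 array left out 20 to 28 of the tested members rose, and 2474 to 3620 of all 12254 genes. The 4 day 21 arrays lay wholly above the 4 day 7 arrays for 23 members, and wholly below for 0, where 24.6% and 21.4% of all genes did so. By family 7 of 10 H2A, 5 of 13 H2B, 4 of 5 H3, 7 of 10 H4 and 3 of 3 canonical H1 genes rose, the H4 count with H4C14 and H4C15 as 2.

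H2AC13, an H2A gene, rose most. It read 8.76 untreated, 8.86 with ethanol, 8.49 with FA and 8.77 with both at day 7, and 9.50, 9.34, 9.50 and 9.26 in the same order at day 21, against 9.62 in undifferentiated cells. The days did not overlap, and the difference was 0.68 ± 0.09, or 1.6-fold (limma adjusted p = 0.000417). H4C4, an H4 gene, lay between 9.02 and 9.45 at day 7 and between 9.66 and 9.95 at day 21, with 9.64 in undifferentiated cells, a rise of 0.59 ± 0.09 (adjusted p = 0.00115). All 4 of its day 21 arrays were above the undifferentiated one.

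H3C10, an H3 gene, went from 9.02 to 9.13 at day 7 to 9.52 to 9.73 at day 21, still below its undifferentiated 10.19, a rise of 0.56 ± 0.06 (limma adjusted p = 0.000135). A cluster that H3C10 shares with H2AC13 rose as well, by 0.63 ± 0.07 (adjusted p = 0.000189). H2AC21 (0.55 ± 0.09, adjusted p = 0.00184) and H2AC20 (0.54 ± 0.06, adjusted p = 0.000170) followed, and they share another cluster, with H2AC18 and H2AC19, that rose by 0.40 ± 0.08 (adjusted p = 0.00334). The linker gene H1-2 rose from a range of 9.73 to 9.99 to one of 10.25 to 10.59, by 0.48 ± 0.06 (adjusted p = 0.000568), and H1-3 and H1-4 rose by 0.28 ± 0.08 and 0.13 ± 0.05 (adjusted p of 0.0209 and 0.0456).

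Both members that fell over time, H2BC21 and H2BC12, are H2B genes named above for polyadenylated transcripts, and H2BC5, named with them, rose. H2BC21 read 10.73 untreated, 10.17 with ethanol, 10.22 with FA and 10.10 with both at day 7, and 10.22, 9.77, 10.28 and 9.56 in the same order at day 21. The days overlapped and the difference was -0.35 ± 0.10 (limma adjusted p = 0.0193). H2BC12, whose levels are given above, had -0.35 ± 0.10 (adjusted p = 0.0239). H2BC5 rose by 0.43 ± 0.09 (adjusted p = 0.00623). Neither decrease is firm. The H2BC21 call was lost without the untreated day 7 array (-0.29), the untreated day 21 array (-0.32) or either ethanol array of day 21 (-0.32 and -0.31), the H2BC12 call without either untreated array (-0.33 and -0.36) or either FA array (-0.27 and -0.24), and a cluster that H2BC21 shares with H2BC19P and H2BC20P was at 0.06 ± 0.05 (adjusted p = 0.373). The third lowest member, H2BC19P, was at -0.19 ± 0.15 (adjusted p = 0.295).

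**Figure D3:**
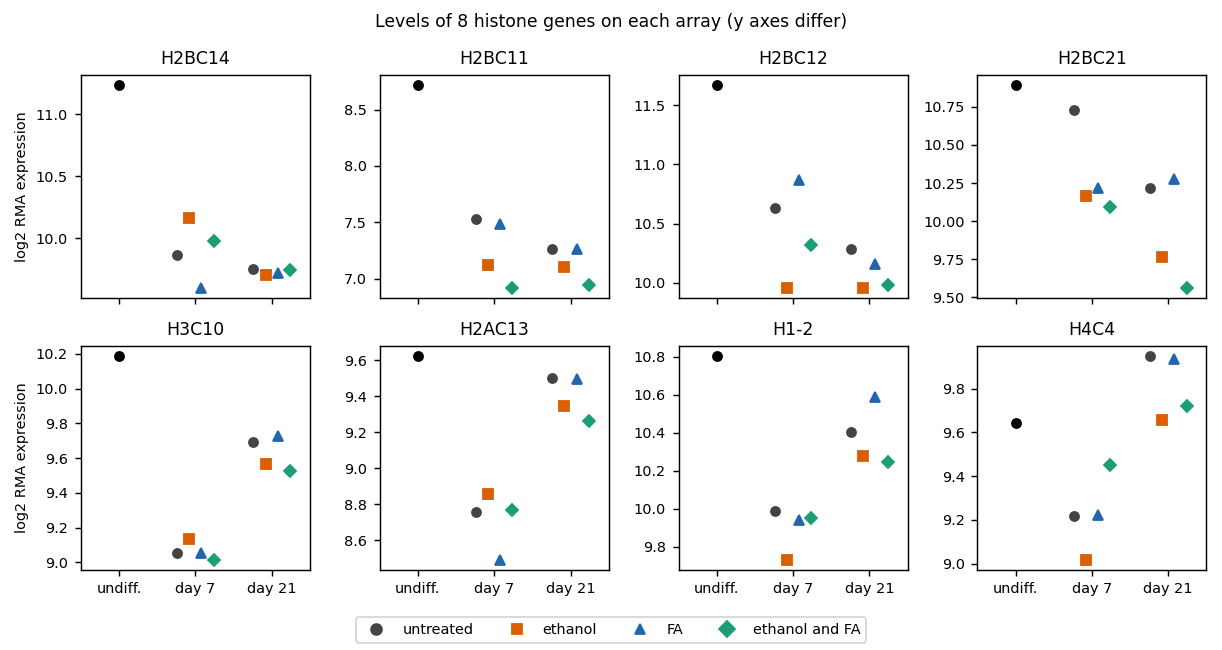
Log2 RMA expression of 8 members on each of the 9 arrays, by day (x axis) and addition (symbols, 1 array each); the y axes differ and do not start at 0. H3C10, H2AC13, H1-2 and H4C4 are higher on every day 21 array than on any day 7 array, whereas H2BC14, H2BC11, H2BC12 and H2BC21 are not.

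H2A and H2B genes lie in head-to-head pairs that share the DNA between their starts. Strand and start were read from the RefSeq promoter windows, which 55 of the 63 members had. Among these, of 10 head-to-head pairs with starts within 1000 bases, 8 had both genes tested, 7 of them H2A with H2B (230 to 248 bases between starts) and 1 of H3C7 with H2BC9 (979 bases). In 7 of the 8 both genes fell in embryoid bodies, among them H2BC11 with H2AC11 (-1.29 and -0.58) and H2BC13 with H2AC13 (-0.88 and -0.51). The exception was H2BC21 with H2AC20, at -0.45 (limma adjusted p = 0.0744) and -0.41 (adjusted p = 0.0164). H2BC11, and H2AC25 in another of the 7, passed the filter through the undifferentiated array alone, so their falls were favoured by it. Of all genes, counted singly, 17.2% fell in embryoid bodies and 26.3% rose from day 7 to day 21. Over time 2 of the 8 pairs had both genes called higher, H3C7 with H2BC9 (0.45 and 0.25) and H2BC13 with H2AC13 (0.38 and 0.68). In H2BC21 and H2AC20, 236 bases apart, the calls had opposite signs, -0.35 and 0.54. H2AC12 has no window, so its strand was not read. Its annotated span lies 248 bases from the start of H2BC12, and both fell in embryoid bodies (-1.07 and -1.25), while over time H2AC12 rose by 0.29 (limma adjusted p = 0.00529) and H2BC12 was called lower. Probe signal shared with other copies was not separated in any pair.

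Histone promoters carry family-specific elements, and those of the members that stood out are printed here as the 150 bases before each start. Capitals mark the TATA box (letters TATAAA), the CCAAT box (letters CCAAT), the octamer (letters ATTTGCAT) and the H1 box (letters AAACACA). All were searched on both strands, and none holds another, though matches can overlap. The windows are from RefSeq, GRCh38.p14, H2BC14 at chr6:27814872-27815021 (plus strand), H2BC11 at chr6:27132796-27132945 (minus strand), H2BC12 at chr6:27146859-27147008 (minus strand) and H2BC21 at chr1:149886683-149886832 (minus strand). These are the 3 deepest falls, with H2BC12 among them, and H2BC21, the other gene called lower over time.

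H2BC14: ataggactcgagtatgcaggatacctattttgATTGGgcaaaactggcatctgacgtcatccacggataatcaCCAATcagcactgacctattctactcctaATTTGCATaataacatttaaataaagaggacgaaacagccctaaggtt
H2BC11: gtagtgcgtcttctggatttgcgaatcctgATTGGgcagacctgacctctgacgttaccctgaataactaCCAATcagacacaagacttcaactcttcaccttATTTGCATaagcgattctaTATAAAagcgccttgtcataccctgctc
H2BC12: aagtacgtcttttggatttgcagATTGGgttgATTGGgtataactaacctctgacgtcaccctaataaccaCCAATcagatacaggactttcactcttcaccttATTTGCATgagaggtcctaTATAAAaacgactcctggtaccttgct
H2BC21: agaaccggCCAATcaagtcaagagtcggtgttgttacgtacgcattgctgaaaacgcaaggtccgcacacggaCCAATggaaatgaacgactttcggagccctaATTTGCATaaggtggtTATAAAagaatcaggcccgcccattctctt

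The genes with large rises over time follow, H2AC13 at chr6:27808023-27808172 (plus strand), H4C4 at chr6:26189113-26189262 (minus strand), H3C10 at chr6:27809901-27810050 (plus strand) and H1-2 at chr6:26056471-26056620 (minus strand), all from the same build.

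H2AC13: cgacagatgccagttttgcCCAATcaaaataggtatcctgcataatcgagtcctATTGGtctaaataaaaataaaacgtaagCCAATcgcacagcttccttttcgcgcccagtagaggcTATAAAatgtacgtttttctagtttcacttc
H4C4: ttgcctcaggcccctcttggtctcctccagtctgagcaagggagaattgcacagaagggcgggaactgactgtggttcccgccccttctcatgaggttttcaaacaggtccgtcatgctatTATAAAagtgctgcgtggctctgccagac
H3C10: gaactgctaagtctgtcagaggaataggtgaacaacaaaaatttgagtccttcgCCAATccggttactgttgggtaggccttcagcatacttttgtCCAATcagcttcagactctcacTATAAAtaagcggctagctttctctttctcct
H1-2: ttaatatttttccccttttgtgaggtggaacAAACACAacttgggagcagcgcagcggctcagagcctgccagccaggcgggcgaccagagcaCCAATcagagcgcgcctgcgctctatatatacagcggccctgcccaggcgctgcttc

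Of the 55 members with a window 49 were canonical. The octamer stood in 12 of 15 H2B and 9 of 12 H2A windows and in 0 of the H1, H3 and H4 windows, against 1.8% of 27305 windows of all genes. Windows of head-to-head partners overlap, so a site can count in both. The H2AC11 match, at -208 on the opposite strand, is the H2BC11 match at -47, since the starts lie 248 bases apart. H2AC6 with H2BC4, H2AC8 with H2BC8, H2AC14 with H2BC14, H2AC17 with H2BC17 and H2AC20 with H2BC21 share a match in the same way. The CCAAT and TATAAA counts hold such shared sites too. In 7 H2B genes (H2BC8, H2BC9, H2BC10, H2BC11, H2BC12, H2BC14 and H2BC21) it began 45 to 50 bases before the start in the direction of the gene, and the 4 H2B genes printed above are among them. CCAAT was in every H1, H2A, H2B and H3 window and in 3 of 11 H4 windows (35.7% of all windows), TATAAA in 32 of 49 (12% of all), and the H1 box in 5 of 5 H1 windows (5.76% of all). Tested canonical members with the octamer had a median difference from undifferentiated cells of -0.56 (16 genes) and those without it -0.39 (21 genes). Over time the medians were 0.17 and 0.33. Since the octamer stood in H2A and H2B windows alone, this sets families against each other, and a site shared by head-to-head partners counts for both genes. Within H2B the medians were -0.59 with it (10 genes) and -0.53 without (3 genes), and 0.10 and 0.38 over time. These are descriptions with no test, and a match of letters is not a bound site.

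**Figure D4:**
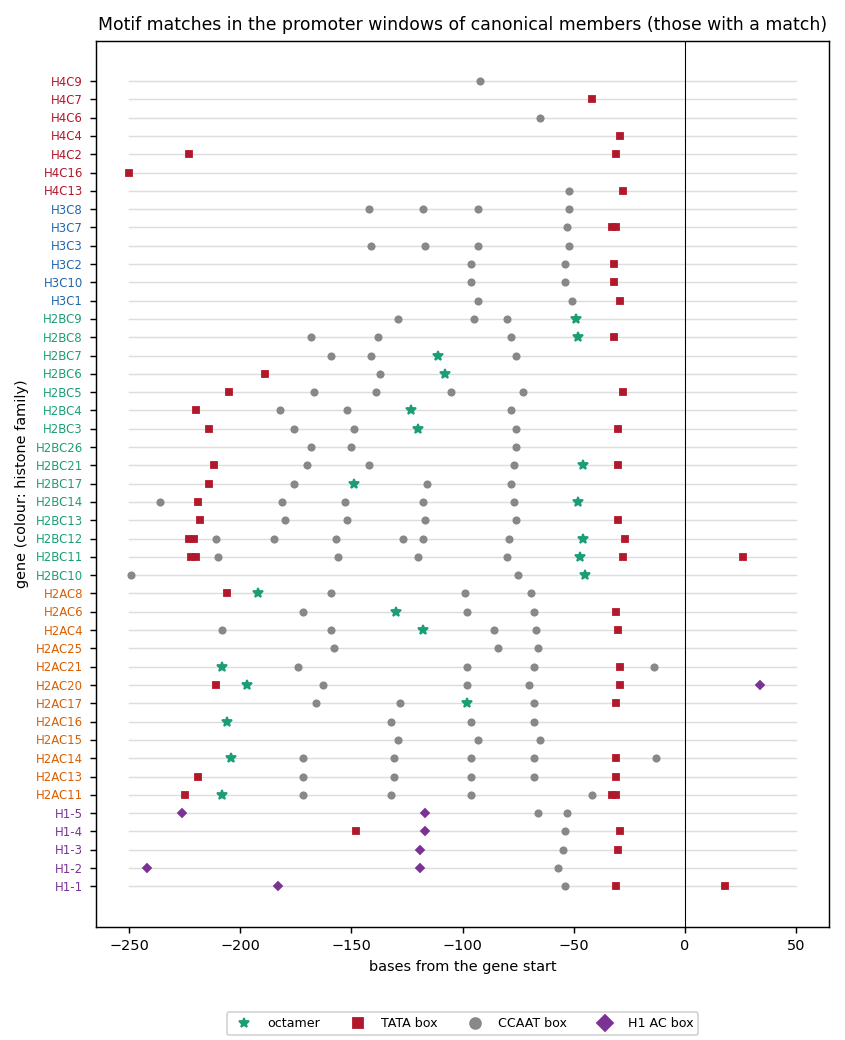
Position of each motif match (symbols) relative to the gene start (x axis, bases) in the RefSeq promoter windows of the 45 canonical members with a match, rows coloured by family. The 4 H4 genes without a match (H4C5, H4C8, H4C14 and H4C15) are not drawn. Octamers lie in H2A and H2B rows only, and TATA boxes cluster near 30 bases before the start. A site between head-to-head starts can be drawn in the rows of both genes.

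With ethanol no histone gene passed the test. In limma 0 of 47 tested members were called in either direction, where 0.685% of all genes were (84 genes), and 13 had an unadjusted p under 0.05, 9 of them lower and 4 higher, or 27.7% of the members against 17.5% of all genes. With a mean-variance trend and robust prior limma called 1 member, H4C8, lower, where 29 of 12254 genes were called lower and 119 higher. The median over the members was -0.04, against 0.02 over all genes, and differences ran from -0.48 to 0.29. With ethanol 13 members were lower in all 4 matched pairs and 3 higher, where 11% of all genes were lower and 18.5% higher in all 4.

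The lowest values with ethanol, named after they were seen, were those of H4C8 and the H2B genes that also stood out above. H4C8, an H4 gene, read 11.20 untreated and 10.36 with ethanol at day 7, 11.08 with FA and 10.67 with both, and 11.20, 10.95, 11.18 and 10.80 in the same order at day 21, against 11.53 in undifferentiated cells. It was lower with ethanol in 4 of 4 pairs, by 0.84, 0.42, 0.25 and 0.39, with a fitted -0.48 ± 0.10 (limma adjusted p = 0.0746), and passed without the day 7 array with ethanol alone (-0.36, adjusted p = 0.0266). In that fit 52 of 12254 genes were called lower with ethanol and 160 higher. H2BC21 was at -0.46 ± 0.10 (adjusted p = 0.0892), H2BC12 at -0.43 ± 0.10 (adjusted p = 0.105) and H2BC11 at -0.36 ± 0.07 (adjusted p = 0.0624), each lower in 4 of 4 pairs. The cluster that H2BC21 shares with H2BC19P and H2BC20P was at 0.03 ± 0.05 (adjusted p = 0.822). That of H2BC12, H2BC12L, H2BC17 and H2BC5 was at -0.12 ± 0.05 (adjusted p = 0.272). The highest members were H2AC15 at 0.29 ± 0.07 (adjusted p = 0.121), higher in 4 of 4 pairs, and the shared signal of H4C14 and H4C15 at 0.24 ± 0.08 (adjusted p = 0.191), which the cluster common to both did not share (-0.17 ± 0.06, adjusted p = 0.191). A cluster that H2AC15 shares with H2BC15 was at 0.01 ± 0.07 (adjusted p = 0.941).

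Member medians in the single pairs were -0.03 at day 7, 0.04 at day 7 with FA, -0.08 at day 21 and -0.10 at day 21 with FA, with 25, 19, 36 and 37 of 47 members lower with ethanol (53.2, 40.4, 76.6 and 78.7%), where 46.6, 42.7, 41.3 and 44.8% of all genes were lower. All genes tested had medians of 0.01, 0.02, 0.02 and 0.01. The interaction of ethanol with day was called for 0 members and 1 of 12254 genes (0.00816%), with 4 of 47 members and 917 of 12254 genes at an unadjusted p under 0.05.

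**Figure D5:**
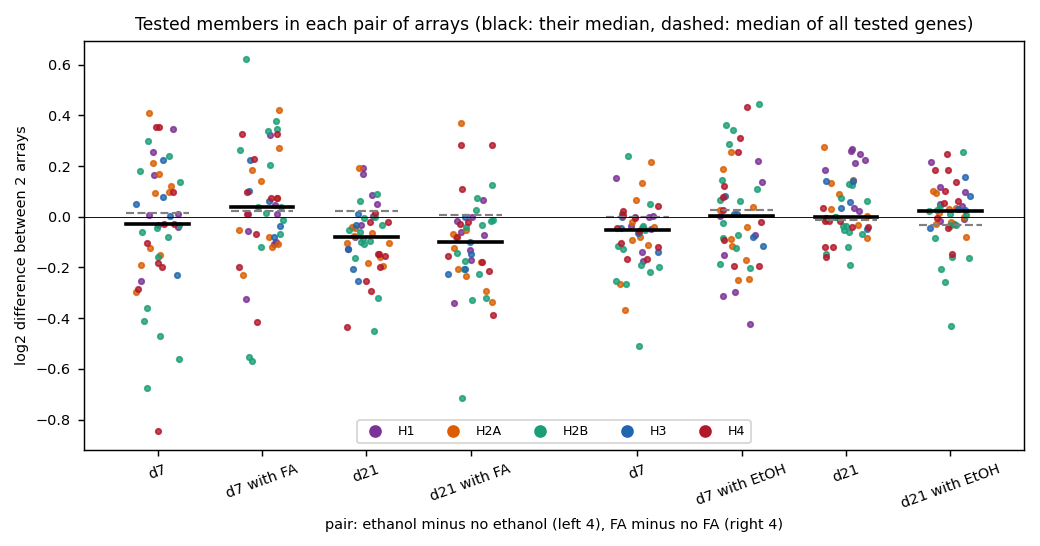
Log2 difference between 2 arrays for each tested member (points, coloured by family) in the 4 ethanol pairs (left) and the 4 FA pairs (right), with the member median in black and the median of all tested genes dashed. The spread between members exceeds the shift of the medians in all 8 pairs.

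FA changed no histone gene by this test. Limma called 0 of 47 members and 0% of all genes, with 1 member, H2AC12 (0.15), at an unadjusted p under 0.05 (2.13% of members, 0.987% of all genes). In all 4 matched pairs 1 member was higher and 2 were lower with FA, where 2.26% and 4.54% of all genes were. The member median was 0.00 and the values lay between -0.18 (H2BC21) and 0.15. The interactions of ethanol with FA and of FA with day called 0 members and 0 genes. At an unadjusted p under 0.05 were 0 and 4 of 47 members, where 100 and 1496 of 12254 genes were.

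Genes that act on histones were followed in 4 lists. Of 30 tested genes for histone mRNA transcription and 3' processing, 9 fell and 2 rose in embryoid bodies, and 9 rose and 3 fell from day 7 to day 21. Of all genes 17.2% fell and 11% rose in embryoid bodies, and 26.3% rose and 22.6% fell over time, and the rises of this list over time, and both counts of the chaperones over time, are near those shares. The first group held CCNE1, LSM10, E2F1, E2F3, CPSF2, UPF1, MIF4GD, CPSF3 and NCBP2, against TUT4 and WDR33, and the second CCNE2, SLBP, CDK2, ERI1, NPAT, MIF4GD, CSTF2T, CPSF3 and NCBP1, against CCNE1, NCBP2 and CSTF2. SLBP read 9.45 in undifferentiated cells, 9.04 to 9.13 at day 7 and 9.50 to 9.64 at day 21, a rise over time of 0.48 ± 0.05 (limma adjusted p = 0.000146), with -0.13 ± 0.08 (adjusted p = 0.306) against undifferentiated cells. NPAT rose over time by 0.27 ± 0.06 (adjusted p = 0.00621). LSM10, a protein of the U7 particle that cuts histone pre-mRNA, fell in embryoid bodies by 0.66 ± 0.09 (adjusted p = 0.00238), as did CCNE1, the cyclin that partners CDK2 at entry into S phase, by 0.92 ± 0.08 (adjusted p = 0.000700). CCNE2, the other E cyclin, rose over time by 1.18 ± 0.09 (adjusted p = 2.01e-05) while CCNE1 fell by 0.43 ± 0.05 (adjusted p = 0.000291).

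Of 24 histone chaperone genes 9 fell and 1 rose in embryoid bodies, and 6 rose and 5 fell over time. CHAF1B (-0.56 ± 0.08, limma adjusted p = 0.00210), a subunit of the assembly factor that follows DNA replication, and NASP (-0.50 ± 0.09, adjusted p = 0.00633), an H3 and H4 chaperone, fell, and ATRX, which acts with DAXX in replication-independent deposition, rose (1.22 ± 0.27, adjusted p = 0.0125). IPO4, ASF1B, SSRP1, HIRA, CHAF1A, ANP32E and SUPT16H fell too. ATRX read 8.41 in undifferentiated cells, 8.58 with ethanol alone at day 7 and 9.27 to 9.80 on the other embryoid body arrays. Over time, near the shares of all genes, ASF1A, ASF1B, NAP1L1, RBBP4, SSRP1 and SUPT16H rose, and CABIN1, HJURP, TONSL, CHAF1A and NASP fell. Of 9 tested genes on a list of histone variants 4 fell and 0 rose: H2AX (-0.67 ± 0.17), MACROH2A2 (-0.48 ± 0.09), H1-10, which is also counted among the members, and H2AZ1 (-0.39 ± 0.08). MACROH2A2 and MACROH2A1, which code for macroH2A, rose over time by 0.87 ± 0.06 (adjusted p = 9.89e-06) and 0.33 ± 0.09 (adjusted p = 0.0181). MACROH2A2 read 9.60 in undifferentiated cells, 8.66 to 8.87 at day 7 and 9.52 to 9.71 at day 21. All its day 7 arrays lay below the undifferentiated one, and its day 21 arrays lay around it. No gene of the 4 lists was called for ethanol or FA.

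S phase genes were lower in embryoid bodies too. Of 23 tested, with SLBP among them, 16 fell and 0 rose. MCM6, a subunit of the replicative helicase, fell by 0.74 ± 0.08 (limma adjusted p = 0.00109), as did CDC6, ORC1, UHRF1, MCM2, MCM3, MCM4, MCM5, MCM7, CDT1, RRM2, CDC45, GINS1, GINS2, PCNA and FEN1. Over time 8 rose and 9 fell, from ORC1 of the origin complex (-0.89 ± 0.06, adjusted p = 1.51e-05) to RRM1, a ribonucleotide reductase subunit (0.62 ± 0.09, adjusted p = 0.000665). RRM2, SLBP, UHRF1, GINS2, MCM2, TYMS and MCM6 rose with RRM1, and CDC6, PRIM1, MCM5, CDC45, MCM3, CDT1, GINS1 and RFC4 fell with ORC1. The mean log2 level of the list was 10.35 in undifferentiated cells, 9.85 to 9.94 at day 7 and 9.83 to 9.89 at day 21. Its part in the histone results was not tested, and fewer cells in S phase and less histone RNA per cell cannot be told apart in bulk RNA.

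Cell type markers moved over the same days. The mean log2 level of 8 pluripotency markers was 11.82 in undifferentiated cells, 11.63 to 11.74 at day 7 and 10.02 to 10.33 at day 21. POU5F1 and NANOG, also listed, had no cluster of their own and are not in this mean. Neural markers (5) went from 7.22 to 7.47 at day 7 to 9.94 to 10.04 at day 21, and mesenchyme markers (4) from 7.64 to 7.79 to 8.41 to 8.50. Among the neural ones PAX6 read 6.32 untreated at day 7 and 10.66 at day 21 and MEIS1 6.25 and 11.27, while SOX1 read 7.84 and 8.12. The mesenchyme mean moved mainly with PDGFRA, 6.85 untreated at day 7 and 9.57 at day 21, whereas COL1A1 read 8.40 and 8.28 and TWIST1 7.98 and 7.75. The mean of the endoderm markers (4) lay within 7.33 to 7.61, with GATA6 at 7.95 and 8.65, SOX17 at 8.17 and 7.94 and GATA4 at 7.65 and 7.55 on the same arrays. The part of these shifts in the histone results was not tested. The array with ethanol alone at day 7 had the lowest mean correlation with the other arrays of its day, 0.990 against 0.994 to 0.995, and without it 36 members fell in embryoid bodies, 26 rose and 2 fell over time. Of all 12254 genes, without that array, 2817 fell and 2008 rose in embryoid bodies, and 3174 rose and 3022 fell over time.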

How the data were processed

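Total RNA of NCCIT cells and embryoid bodies was hybridised to 9 arrays, per the labels. The deposited table holds log2 values that the authors obtained with RMA. The submitters' processing notes name Affymetrix Expression Console 1.3.1 for this. That the logarithm has base 2 was inferred from the range of the values (2.49 to 14.3), and no source used here gives the genome build behind the clusters. Quantile normalization within RMA hides a shift common to most transcripts, and small differences between dim genes come out compressed.

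Of 33297 transcript clusters 19460 had 1 gene symbol in the platform annotation, 1754 several and 12083 none, and the Entrez ID of 19429 was found in RefSeq. The brightest cluster stood for a gene (769 of 18417 genes had more than 1). Genes were kept if their highest value exceeded the median of all values, and limma 3.58.1 (lmFit and eBayes) in R 4.3.3 fitted the additive model, leaving 4 degrees of freedom for the residual, with 3.94 prior ones. The ethanol and FA effects are means of 4 matched differences. Without replicates the residual took the place of their spread, and real interactions would enlarge it. The Benjamini-Hochberg adjustment ran over 12254 genes, with a threshold of 0.05. Interactions were tested by adding 1 term (3 residual degrees of freedom). The fit was tested on simulated data.

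The members, lists and tests were chosen with earlier results of these data known, so none is independent evidence. Every member past the threshold for ethanol or FA was to be named, the 6 largest in each direction for day and differentiation (3 as values where fewer than 3 passed), the brightest and dimmest 3, the H1 genes and the untested members, and listed genes that passed. Of these last, examples carry values. Members named by ethanol value were chosen after these were seen. The number of arrays limits the precision.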

Additional observations from a re-analysis of the deposited data

How the results depend on the processing

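The alternatives were 2 other filters on dim genes, the mean of a gene's clusters, arrays centred on their medians, a mean-variance trend with robust prior, the canonical members alone, clusters of several histone symbols added, and each array left out in turn. Counting H4C14 and H4C15 once, and leaving out testis, oocyte, pseudogene and antisense members, were chosen after seeing the data. Members that fell in embryoid bodies numbered 28 (of 42 tested) to 43 (of 62, with shared clusters, some of identical values) over the settings that kept all arrays. With 1 embryoid body array left out they were 23 to 36 of 47, and 0 rose throughout. The lowest, 23, came without either untreated array. Over these left-out fits, all genes called lower ranged from 1263 without the untreated day 7 array to 2817 without ethanol alone at day 7, in place of 2104. Members that rose over time numbered 25 (of 42 or, with H4C14 and H4C15 as 1, of 46) to 32 (of 62). With 1 array left out they were 20 to 28 of 47, where 2474 to 3620 of all genes rose. Members that fell over time, 2 as reported, numbered 1 with arrays centred, where H2BC12 was at -0.29 (adjusted p = 0.0552), 4 with clusters of several symbols added, and 0 to 5 with 1 array left out: 5 without ethanol and FA at day 7, 0 without either untreated array and 1 without any other day 21 array. The clusters that brought 2 to 4 were 2 of identical values, both shared by H4C14 and H4C15. Of all genes 2771 fell over time as reported and 2106 with arrays centred. Without ethanol and FA at day 7 they were 3362, and without the untreated array of day 7 or day 21 they were 2045 and 2133. With ethanol 1 member, H4C8, was called lower with the trend and robust prior, where 29 of all genes were. With 1 array left out 0 to 1 members were called lower with ethanol, where 0 to 53 of all genes were. FA called 0 members throughout. Its member median lay between -0.02 and 0.01. The undifferentiated array could not be left out of the comparison with embryoid bodies. The cause of these shifts was not tested. No replicate numbers are shared between arrays of a condition, so no paired analysis by replicate number was possible because each condition had 1 array.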

Other observations

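Most histone genes without a cluster of their own were measured through shared clusters. In an extended fit 15 clusters naming several histone genes each passed the filter, several of them duplicates of one another. Clusters shared by the H3 genes H3C13, H3C14 and H3C15 fell in embryoid bodies by 0.52 to 0.63 on the log2 scale (limma adjusted p from 0.0156 to 0.0268), and were at 0.11 to 0.20 over time (adjusted p from 0.0919 to 0.306). Those shared by the H4 genes H4C11 and H4C12 fell by 0.34 (adjusted p of 0.0181 and 0.0197) and rose over time by 0.18 and 0.20 (adjusted p of 0.0175 and 0.0122). A cluster of H3C4 with H2AC7 rose over time by 0.50 ± 0.09 (adjusted p = 0.00218) and was at -0.32 ± 0.15 (adjusted p = 0.143) against undifferentiated cells. Among these clusters, those of H2AC18 to H2AC21, of H3C13 to H3C15 and of H4C14 with H4C15 each held a pair with identical values on all arrays.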
